A study of Mus musculus with 11 samples.

Results

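The cells described here are 292 of the 9379 cell barcodes in a pair of colon libraries, and most of them carried little RNA of the macrophages (macs) that were sorted. They were chosen by 2 genes, as barcodes with at least 3 unique molecular identifiers (UMIs, each counting 1 captured RNA molecule) of Dcn and at least 3 of Col1a2. Dcn (chromosome 10, 97479609 to 97518143, plus strand) encodes decorin, a small proteoglycan that binds collagen fibrils. Col1a2 (chromosome 6, 4504814 to 4541544, plus strand) encodes a chain of type I collagen. Positions here come from the GENCODE M21 annotation of mm10. The rule took 161 of 4989 barcodes in the WT library and 131 of 4390 in the Zeb2KO library, out of 51712 barcodes in the whole series. Because the rule read the same counts as those given below, the levels of these cells against other barcodes are a description and carry no test.

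The study asked what the transcription factor ZEB2 does in tissue macs, and measured RNA by droplet single-cell sequencing of 3′ ends in macs sorted from 5 tissues. The WT mice of the colon libraries were Zeb2fl/fl, with loxP sites around part of Zeb2 but without CRE. The Zeb2KO mice were littermates with the same alleles and Fcgr1-cre, in which CRE is made from the gene for CD64, so the deletion is directed to cells that use Fcgr1, and the study's reporter mice also showed CRE activity in some lymphocytes and dendritic cells. Per the study's methods all mice were C57Bl/6 of both sexes at 6 to 8 weeks of age, and the colon cells were sorted from lamina propria as live CD45+CD64+F4/80+ cells without Ly6C, Ly6G and SiglecF. Each genotype had 1 library, the number of mice behind it is not stated in the sources used here, and no difference between the genotypes has a replicate check. Intervals given below are 95% intervals that cover counting error only.

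As background, fibroblasts make and remodel the collagen matrix of a tissue. In the gut wall they also send signals of the BMP and WNT families to the epithelium and colony-stimulating factors and chemokines to macs and other leukocytes. Subsets lie directly under the epithelium, within the lamina propria, and in the submucosa and around vessels, and myofibroblasts and smooth muscle cells share part of their matrix genes. Fibroblasts lack CD45 (Ptprc), the CD64 receptor (Fcgr1) and F4/80 (Adgre1), on which the colon cells were sorted.

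The selected cells made up 3.23% of WT barcodes (Clopper-Pearson interval 2.75% to 3.76%) and 2.98% of Zeb2KO barcodes (2.50% to 3.53%). The values are those of 1 library each, and whether the share differs between the genotypes was not tested. The rule found no cell in 7 of the other 9 libraries, which allows a share of up to 0.0969% in the smallest of them, taken as 3 cells of its 3097 (the Clopper-Pearson upper bound is 0.119%). It found 1 cell in the liver Zeb2KO library and 1 in the lung Zeb2KO library. The median depth of the selected cells was 8961 UMIs in WT and 7555 in Zeb2KO, beside 8740.5 and 8103 in the other barcodes, and they held 3.36% and 2.81% of all UMIs of their libraries. The libraries held 47400786 and 39650485 UMIs in all. Libraries of the series shared 14 to 76 barcode sequences with one another in 55 pairs. Of the selected barcodes, 9 in WT and 4 in Zeb2KO also occurred in another library, and none was a selected cell in both colon libraries.

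UMIs of Dcn ranged from 3 to 390 per selected cell in WT, with a median of 41. In Zeb2KO they ranged from 3 to 450, with a median of 33. Col1a2 ranged from 3 to 82 UMIs (median 18) in WT and from 3 to 65 (median 14) in Zeb2KO. The 17 WT cells just inside the rule, at 3 UMIs of the lower gene, had a median of 6 UMIs of Col1a1 and Col3a1 together, whereas the 52 WT barcodes just outside, at 2 UMIs, had a median of 2. In Zeb2KO the 10 cells just inside had a median of 12.5 and the 24 just outside a median of 1.5. Cells at 4 or more of both genes had medians of 56.5 and 36.

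**Figure D1:**
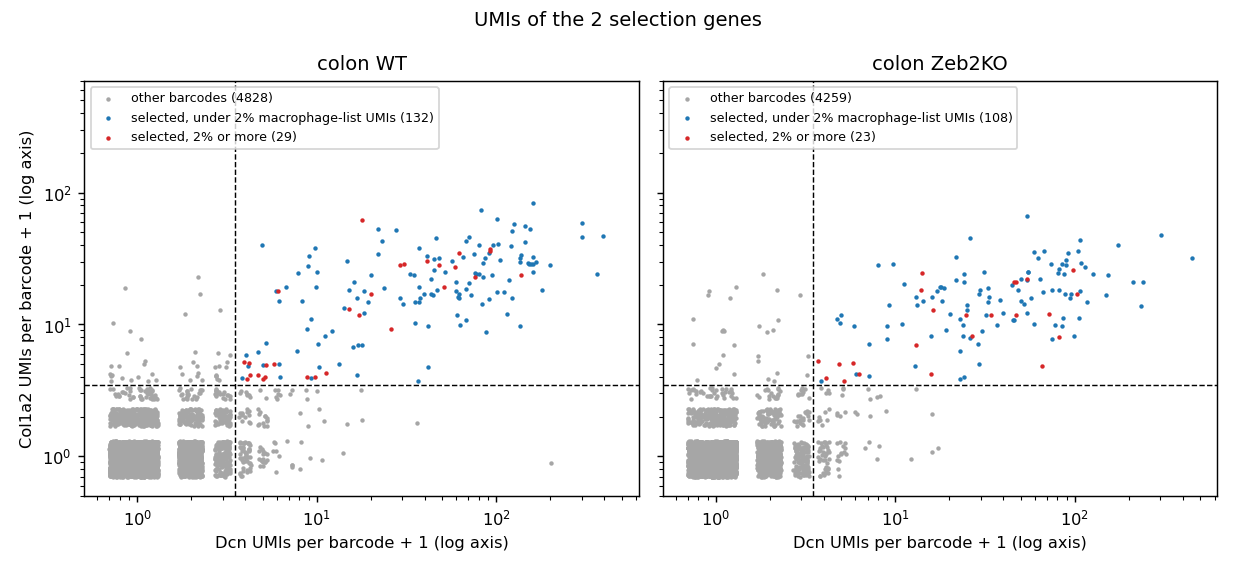
UMIs of Dcn (x axis) and Col1a2 (y axis) per barcode, plus 1 and with a small random offset, on log axes, in colon WT (left) and Zeb2KO (right); dashed lines lie between 2 and 3 UMIs. Selected cells are blue where under 2% of their UMIs fell on 20 macrophage markers (132 and 108 cells) and red where 2% or more did (29 and 23 cells); they spread over more than 2 powers of 10 in Dcn, while most other barcodes lie at 0 or 1 UMI.

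The other 2 marker genes of this cell type, which the rule did not read, were found in nearly every selected cell. Col3a1, which encodes the chain of type III collagen, had a UMI in 160 of 161 WT and 130 of 131 Zeb2KO cells. Col1a1, the partner chain of Col1a2, had one in 154 and 125 cells. In barcodes chosen as epithelial reference cells (at least 2 UMIs of Epcam and of Krt8), the shares with Col1a1 were 5% of 40 WT and 15.4% of 26 Zeb2KO cells, at median depths of 17289 and 12064.5 UMIs. For Col3a1 they were 27.5% and 3.85%, and 29.1% and 18.9% of the macrophage reference barcodes, those with at least 3 UMIs of C1qa and of C1qb and 2% or more macrophage RNA. Both genes were also frequent in stromal cells of another kind. In the 14 WT and 16 Zeb2KO barcodes outside the rule with at least 3 UMIs of the muscle genes Actg2 and Myh11, Col3a1 was found in 92.9% and 100% and Col1a1 in 71.4% and 81.2%, so these markers do not separate fibroblasts from muscle-type cells. The selected set also held a group that was led by smooth muscle genes, so the whole set is called Dcn+Col1a2+ cells here.

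At the median these cells carried about the same share of RNA of macs as epithelial cells did. The share of UMIs on 20 macrophage markers (C1qa, Csf1r, Lyz2, Cx3cr1 and others) set most of them apart from the rest of the sort. Its median was 0.775% of UMIs in WT and 0.537% in Zeb2KO Dcn+Col1a2+ cells, 0.785% and 0.539% in the epithelial reference cells, and 5.98% and 5.36% in all other barcodes. Upper quartiles were higher in the Dcn+Col1a2+ cells, at 0.909% and 0.735% against 0.864% and 0.629% in the epithelial cells. Of the summed UMIs the list made up 1.79% and 1.54%, against 0.927% and 1.17%. The cells with less than 2% of their UMIs on the list numbered 132 in WT and 108 in Zeb2KO. In those cells the list stood at 12.6% (WT) and 10.8% (Zeb2KO) of its summed level in the other barcodes. Marker by marker it stood at 7.20% to 16.5% in WT (median 12.9%) and 7.02% to 35.8% in Zeb2KO (median 10.6%), with none of the 20 markers at 0.

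Ptprc had a UMI in 16.7% of these WT cells and 14.8% of the Zeb2KO cells, against 27.5% and 42.3% of the deeper epithelial cells and 84.4% and 87.8% of the macrophage reference barcodes. Fcgr1 had one in 9.85% and 13.0%, against 32.5% and 15.4% of epithelial cells. For Adgre1 the shares were 40.2% and 33.3%, against 60.0% and 57.7%. Thinned to 4000 UMIs, Ptprc was found in 4% of 125 WT and 8.25% of 97 Zeb2KO cells, against 17.9% of 39 and 24% of 25 epithelial cells. The thinned shares for Adgre1 were 15.2% and 18.6%, against 25.6% and 28%. For Fcgr1 they were 5.6% and 4.12%, against 5.13% and 8%, which is 2 epithelial cells in each library. At equal depth the shares for Ptprc and Adgre1 were below those of the epithelial cells, which should lack these genes. The shares for Fcgr1 rested on 2 to 7 cells. However, the Dcn+Col1a2+ cells compared were first limited to under 2% on a list that holds Adgre1 and Fcgr1. The epithelial cells had no such limit, and reached 3.65% in WT and 5.82% in Zeb2KO. The comparison therefore cannot decide whether these genes were expressed, and no expression is read from it.

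The remaining 29 WT and 23 Zeb2KO cells held 2% or more macrophage-list UMIs, with medians of 4.04% and 3.55%. They were also deeper, with median depths of 14481 and 12627 UMIs beside 8325.5 and 7461 in the cells under 2%. Ptprc was found in 75.9% and 73.9% of them. Doublets were not removed, and whether these barcodes held more than 1 cell was not tested. Results are given with and without them. Of the cells just inside the rule, 7 of 17 in WT and 5 of 10 in Zeb2KO were under 2%. Of those at 4 or more UMIs of both genes, 125 of 144 and 103 of 121 were.

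**Figure D2:**
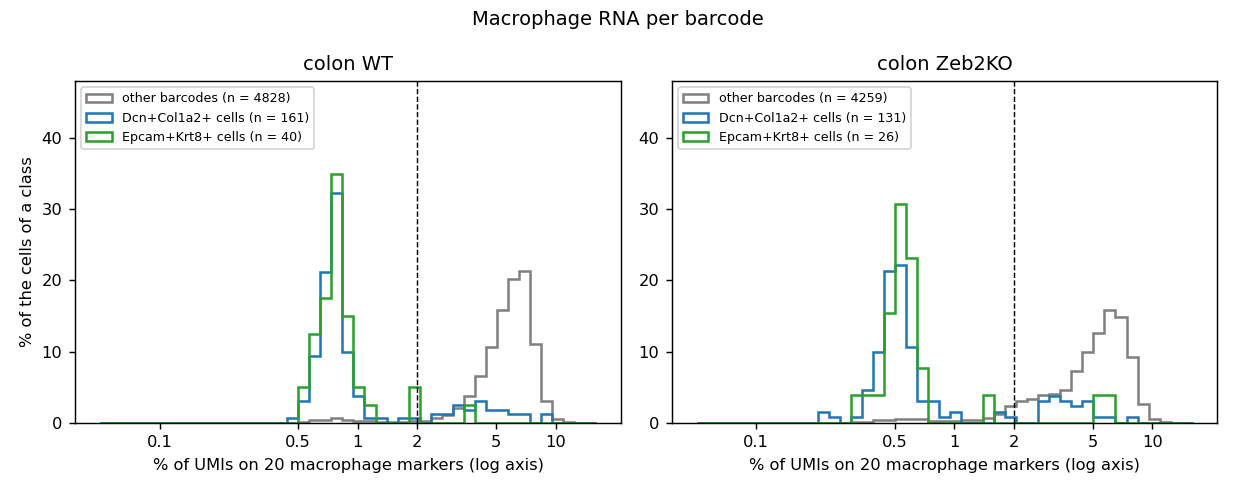
Share of a barcode's UMIs on 20 macrophage markers (x axis, log scale) against the percent of cells of each class (y axis), for Dcn+Col1a2+ cells, epithelial reference cells (Epcam+Krt8+) and all other barcodes, in WT (left) and Zeb2KO (right). Most Dcn+Col1a2+ cells lie on the peak of the epithelial cells, with medians of 0.775% and 0.537%; the dashed line is the 2% limit, above which 29 and 23 of them lie.

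Levels are given from here in CPM, the UMIs of a gene summed over a group of cells scaled to 1000000 UMIs of that group. The values of all Dcn+Col1a2+ cells come first, WT before Zeb2KO. Of the 1736 genes of at least 100 CPM in these cells or in the other barcodes, 361 (20.8%) were at least 2-fold higher in the Dcn+Col1a2+ cells and 278 (16%) at least 2-fold lower, counting both libraries together. The 15 genes with the highest ratio among those of at least 200 CPM were, in order, Dcn, Col1a1, Meg3, Clec3b, Fbln1, Lum, Svep1, Eln, Col1a2, Bmp4, Mgp, Ccdc80, C1qtnf3, Col3a1 and Aebp1. Their log2 ratios ran from 7.11 to 6.30. Apart from Meg3, a long noncoding RNA, and Bmp4, a growth factor, most of them encode secreted proteins of the matrix or proteins bound to it.

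These cells held most UMIs of several stromal genes in each library. Dcn+Col1a2+ cells carried 80.7% of all Dcn UMIs of the WT library and 83.6% of those of the Zeb2KO library. Dcn was read by the rule, so a high share of its UMIs follows from the selection. For Svep1, which encodes an adhesion protein of the matrix, the shares were 83.7% and 85.7%. Among 5042 genes of at least 20 CPM over both libraries, 42 had at least 50% of their UMIs in these cells and 74 had at least 20%.

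Of 13 collagen genes listed, 11 reached 100 CPM in these cells. Col3a1 stood at 4282 CPM in WT and 3006 CPM in Zeb2KO, against 49.8 and 36.8 CPM in the other barcodes. Col1a1 stood at 1868 and 1583 CPM against 12.1 CPM in the other barcodes of either library. Col6a1, a chain of the beaded collagen VI, stood at 943 and 889 CPM, and the fibril-associated Col14a1 at 201 and 213 CPM. Basement membrane genes were also present, with Col4a1 at 396 and 382 CPM and the laminin chain Lamb1 at 217 and 200 CPM, and 8 of 11 listed genes reached 100 CPM. Nid2 did not follow the list, at 5.66 and 11.7 CPM against 9.26 and 12.5 CPM in the other barcodes.

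Proteoglycans and matrix glycoproteins had the highest summed level of the 32 lists, and 23 of 26 listed genes reached 100 CPM. Sparc, which encodes a collagen-binding matrix protein, stood at 6312 and 4657 CPM, and Igfbp7 at 3948 and 3934 CPM. Postn (periostin) stood at 2067 and 1315 CPM and lumican (Lum) at 1189 and 1059 CPM. Enzymes and chaperones that process collagen were led by Serpinh1, the collagen chaperone of the endoplasmic reticulum, at 1767 and 1503 CPM. The crosslinking enzyme Loxl1 stood at 251 and 208 CPM. Fmod and Smoc2 were near 0, at under 4 CPM in both libraries.

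**Figure D3:**
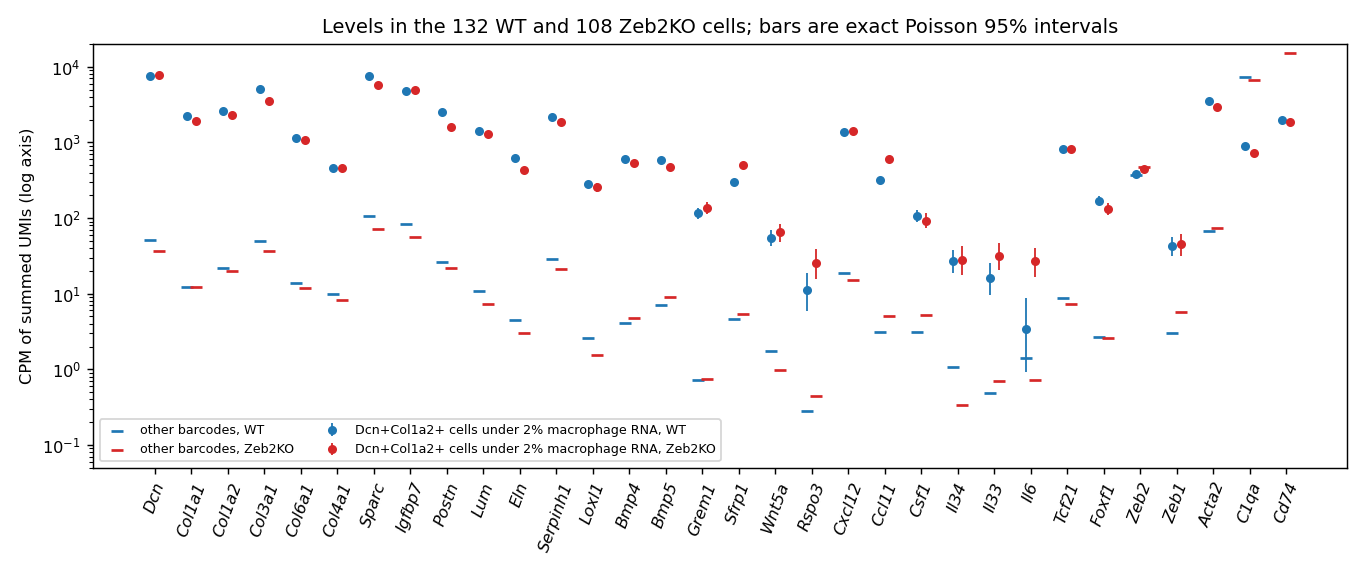
Summed level of 32 genes in CPM (y axis, log scale) in the 132 WT (blue) and 108 Zeb2KO (red) Dcn+Col1a2+ cells under 2% macrophage RNA; points carry exact Poisson 95% intervals and dashes are the other barcodes of each library. Matrix and signalling genes lie above the dashes in both libraries, Zeb2 lies on them (377 and 443 CPM against 372 and 474 CPM), and C1qa and Cd74 lie below.

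Among 24 genes of BMP and WNT signalling, ligands and secreted antagonists were found side by side. Bmp4 and Bmp5, ligands that act on epithelial cells, stood at 509 and 442 CPM and at 476 and 379 CPM. The WNT antagonist Sfrp1 stood at 250 CPM in WT and 405 CPM in Zeb2KO, and the BMP antagonist Grem1 at 98.1 and 106 CPM. Grem1 was close to 0 in the other barcodes, at 0.720 and 0.752 CPM. The R-spondin Rspo3, which strengthens WNT signals, was low at 9.43 and 18.9 CPM, and Rspo2 was at 0.629 and 0.899 CPM, which is 1 UMI in each library.

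Ligands for macs formed a second group. Csf1, the growth factor of macs, stood at 91.1 CPM in WT (interval 76.9 to 107) and 80 CPM in Zeb2KO (64.3 to 98.5), against 3.08 and 5.19 CPM in the other barcodes. Il34, the other ligand of the CSF1 receptor, stood at 20.7 and 22.5 CPM, against 1.07 and 0.337 CPM. Cxcl12, a chemokine that holds leukocytes in stromal niches, stood at 1128 and 1127 CPM, with a UMI in 85.7% and 87.0% of cells. With cells thinned to 4000 UMIs (7 WT and 12 Zeb2KO cells were shallower and left out), Cxcl12 was found in 76.0% of 154 WT cells and 82.4% of 119 Zeb2KO cells, beside 7% and 4.2% of 1000 macrophage reference barcodes drawn from each library. The receptor for Csf1 and Il34, Csf1r, stood at 125 and 79.3 CPM in the cells under 2% macrophage RNA. The other barcodes had 961 and 811 CPM of it. The cells under 2% stood at 13.0% and 9.78% of that level, beside 12.6% and 10.8% for the summed macrophage list. Csf1r is on that list, and no expression of it is read from these values.

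Complement genes were led by the inhibitor Serping1 at 994 and 934 CPM and the protease C1s1 at 368 and 352 CPM, and 5 of 15 listed genes had no UMI. Retinoid genes included the chemoattractant gene Rarres2 at 1918 and 1766 CPM and the carrier Rbp4 at 424 and 407 CPM. The transcription factors of gut mesenchyme Tcf21 (690 and 672 CPM), Foxf1 (140 and 99.8 CPM) and Nkx2-3 (207 and 168 CPM) were found in both libraries. Hoxb13, a gene of the distal colon, had no UMI in any Dcn+Col1a2+ cell, where the other barcodes had 4.78 and 0.960 CPM.

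The summed levels of markers of other stromal, neural and blood cells ranged widely. Of 8 enteric glia markers 4 were at 0, the defining Sox10 and Gfap among them, and the list summed to 83.6 and 95.3 CPM, almost all of it Gpm6b. The 6 mesothelial markers summed to 8.80 and 7.19 CPM, with Msln, Upk3b and Lrrn4 at 0. Mast cell markers summed to 1.26 and 0 CPM, with 7 of 8 at 0, and the 6 T cell markers in the tables to 9.43 and 1.80 CPM, with Cd3g at 0. The 5 B and plasma cell markers in the tables summed to 223 and 116 CPM, mostly Jchain, against 465 and 761 CPM in the other barcodes, and to 72.9 and 50 CPM in the cells under 2% macrophage RNA. Lymphatic endothelial markers summed to 222 and 294 CPM, mostly Pdpn, which fibroblasts also express, with Reln at 0. Epithelial markers summed to 51.5 and 27.9 CPM, against 16073 and 26387 CPM in the epithelial reference cells. Endothelial markers summed to 129 and 68.3 CPM with Cldn5 at 0. The WT value held 41 UMIs of Plvap of which 32 came from 1 cell. The 8 pericyte markers summed to 212 and 188 CPM. They were highest in the muscle-gene group named cluster 4 here, at 987 CPM, beside 86.2 to 150 CPM in the other 4 clusters, and 5 of the 8 were raised in it. The 11 smooth muscle and myofibroblast markers summed to 7994 and 6808 CPM, with Acta2 at 2658 and 2184 CPM.

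The cells under 2% macrophage RNA fell into 5 clusters when genes that differed by 2-fold between the libraries were left out of the clustering. The clusters held 78, 63, 40, 35 and 24 cells, and each of them held cells of both libraries. The genes that defined them are a description. At other settings clusters 3 and 5 kept every cell together, cluster 4 kept 85.7% to 100% and cluster 2 kept 73.0% to 95.2%, while cluster 1 was divided at higher resolution and kept 47.4% to 100%.

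Cluster 3 was like the Pdgfra-high fibroblasts that face the epithelium, with 6 of its top 10 genes on that list (Procr, F3, Fgf9, Sox6, Wnt5a and Bmp3). The receptor Pdgfra had a UMI in 40 of its 40 cells and stood at 823 CPM, and Bmp5 at 1723 CPM. Acta2 stood at 3464 CPM in cluster 3, with a UMI in 95% of its cells. The smooth muscle and myofibroblast markers summed to 7632 CPM there and to 48407 CPM in cluster 4. In clusters 1, 2 and 5 they summed to 377 to 995 CPM. Cluster 4 was like smooth muscle or myofibroblasts, with Cnn1, Actg2, Myh11, Hhip and Des among its top 10 genes, and goes against the name fibroblast. Its Acta2 level was 14938 CPM, its Dcn level 1456 CPM, and Pdgfra was found in 1 of its 35 cells. Cluster 5 was like submucosal and adventitial fibroblasts, with Ackr4, C3, Pi16 and Has1 among its top 10 genes and Dcn at 23883 CPM. Has1 and Pi16 came from few cells. Of the 42 WT UMIs of Has1 under 2% macrophage RNA 25 were in 1 cell, and Pi16 was found in 6 WT and 8 Zeb2KO cells.

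Clusters 1 and 2 stayed unnamed, since 0 and 1 of their top 10 genes were on the 4 lists of stromal subsets (epithelium-facing, submucosal, muscle and pericyte). Cluster 1 was led by Ces1d, Igfbp3, Tnc and Adamdec1, a secreted metalloprotease gene. Adamdec1 stood at 8125 CPM in cluster 1, at 4996 CPM in cluster 3 and at 180 to 1711 CPM in the other clusters. Cluster 2 was led by Eln, the gene of elastin, at 1375 CPM and by Tnfsf13b, which encodes the B cell factor BAFF, at 332 CPM. The mac growth factors were spread differently, as a description without a test. Csf1 lay between 60.1 and 127 CPM in all 5 clusters, whereas Il34 stood at 46.4 CPM in cluster 1 and 60.6 CPM in cluster 3 and at 5.46 to 7.19 CPM in the other 3. Grem1 stood at 705 CPM in cluster 5 and 165 CPM in cluster 2, and at 2.90 CPM in cluster 3, where Bmp5 was highest.

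**Figure D4:**
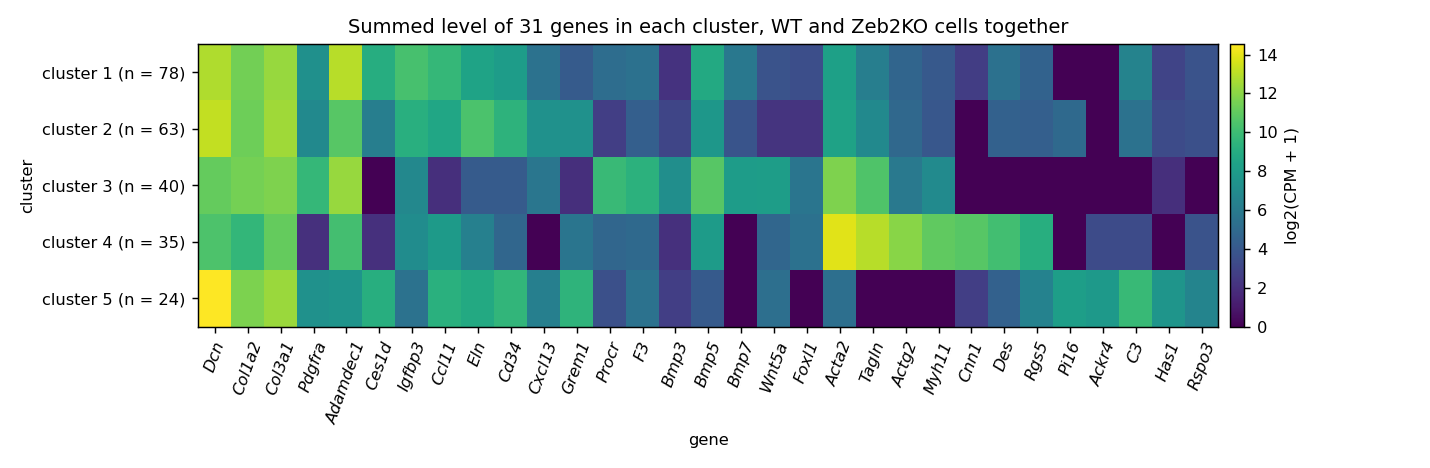
Summed level of 31 genes (columns), as log2 of CPM plus 1 (colour), in each of the 5 clusters of Dcn+Col1a2+ cells under 2% macrophage RNA (rows, with the number of cells), both libraries together. Procr, F3, Bmp3, Bmp7 and Wnt5a are bright in cluster 3, Acta2, Actg2, Myh11, Cnn1 and Des in cluster 4, and Pi16, Ackr4, C3, Has1 and Grem1 in cluster 5. Acta2 is also high in cluster 3, at 3464 CPM.

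The clusters took different shares of the libraries. Cluster 1 held 25.8% of 132 WT cells (18.5% to 34.1%) and 40.7% of 108 Zeb2KO cells (31.4% to 50.6%). Cluster 2 held 31.1% of WT (23.3% to 39.7%) and 20.4% of Zeb2KO cells (13.2% to 29.2%). Cluster 3 held 17.4% and 15.7%, cluster 4 17.4% and 11.1%, and cluster 5 8.33% and 12%. With 1 library per genotype these shares describe the libraries, and the mice and the genotype cannot be told apart.

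Zeb2 itself (chromosome 2, 44983632 to 45117395, minus strand), the gene that the study deleted in macs, was also found in the Dcn+Col1a2+ cells. In the cells under 2% macrophage RNA it stood at 377 CPM in WT (342 to 413) and 443 CPM in Zeb2KO (399 to 491). The other barcodes, mostly macs, stood at 372 and 474 CPM and the epithelial reference cells at 34.9 and 80.8 CPM. If these cells held Zeb2 RNA of the other barcodes in the same proportion as the macrophage list, the level would be 47.0 and 51.1 CPM. A UMI of Zeb2 was found in 86.4% of WT and 83.3% of Zeb2KO cells. Among cells thinned to 4000 UMIs the shares were 71.2% of 125 and 73.2% of 97 cells, beside 73.1% and 77% of macrophage reference barcodes. Counting of 3′ ends does not show whether the floxed part of the gene was lost, so the values above say nothing on the deletion.

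The level of Zeb2 was lowest in cluster 3 and next lowest in cluster 5 in both libraries. Cluster 3 stood at 96.6 CPM in WT and 77.4 CPM in Zeb2KO, and a UMI in 42.5% of its cells. Cluster 5 followed at 225 and 253 CPM. Clusters 1, 2 and 4 lay between 399 and 608 CPM in each library, with a UMI in 91.0% to 96.8% of cells. Its paralogue Zeb1 stood highest in cluster 3, at 110.5 CPM in WT and 101 CPM in Zeb2KO, and at 16.1 to 91.1 CPM in the other clusters. Over all Dcn+Col1a2+ cells Zeb1 stood at 37.7 and 38.7 CPM, against 2.99 and 5.73 CPM in the other barcodes. The low Zeb2 beside high Zeb1 of cluster 3 rests on 40 cells and was noticed in these data, without a test.

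Between the genotypes few genes differed by 2-fold. Of 1575 genes that reached 100 CPM in one of the libraries, 17 (1.08%) had a log2 ratio of CPM plus 1 of at least 1 in size, 11 (0.698%) of them higher in Zeb2KO and 6 (0.381%) lower. With the mean of each cell's own CPM in place of the summed CPM, 5 were higher and 9 lower. In the other barcodes the same rule found 16 of 1340 genes (1.19%), 12 higher (0.896%) and 4 lower (0.299%). The median log2 ratio over the 1575 genes was 0.0018. Among the cells under 2% macrophage RNA, 10 of 1605 genes (0.623%) passed, 7 higher (0.436%) and 3 lower (0.187%), and 6 of these were among the 17. Since cluster 4 goes against the name of the class, values within clusters are given for a part of the genes.

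Of the list genes at 100 CPM, 0 of 11 collagen, 8 basement membrane, 23 matrix glycoprotein, 8 collagen processing, 9 protease, 5 BMP and WNT, 7 complement and 10 smooth muscle genes passed 2-fold over all cells. At 1.08% of all genes called, lists of this length are near the background with 0. The listed genes under 100 CPM were not compared, and with 5 UMIs of each selection gene the muscle-list genes Des and Hhip passed. With 1 UMI of each selection gene the complement gene C3 passed. The median log2 ratio of the 11 collagen genes was -0.09. The ratio farthest from 0 among them was that of Col3a1, at -0.51. The values of Ogn (osteoglycin) were 696 and 430 CPM and those of Postn 2067 and 1315 CPM, both under 2-fold. In cluster 3 Postn stood at 1924 CPM in WT and 557 CPM in Zeb2KO, while in cluster 4 it stood at 1950 and 2413 CPM.

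Some MHC class II genes and chemokines passed 2-fold in all cells but not in the pooled cells under 2% macrophage RNA. Cd74, the chaperone of MHC class II, stood at 5613 and 2741 CPM over all Dcn+Col1a2+ cells, and at 1988 and 1847 CPM in the cells under 2%. H2-Aa stood at 2090 and 899 CPM over all cells and at 914 and 710 CPM under 2%. The pooled Zeb2KO values under 2% rested on cluster 2 and on single cells, and these overlap. Cd74 stood at 2047 CPM in WT and 4450 CPM in Zeb2KO in cluster 2, but at 2051 and 1137 CPM in cluster 1, 1905 and 1115 CPM in cluster 3, 1909 and 983 CPM in cluster 4, and 1933 and 992 CPM in cluster 5. H2-Aa stood at 852 and 1749 CPM in cluster 2, and at 934 to 957 CPM in WT and 286 to 495 CPM in Zeb2KO in the other 4. In Zeb2KO, 1 cell of cluster 2 held 350 of 1513 Cd74 UMIs and 118 of 582 H2-Aa UMIs. Another cell, whose cluster was not looked up, held 132 of H2-Aa. Without the first of them Cd74 stood at 1449 CPM (log2 ratio -0.46) and H2-Aa at 578 CPM (-0.66). Thus 4 of 5 clusters had lower values of both genes in Zeb2KO than in WT. The higher Zeb2KO values of cluster 2 include the cell with 350 Cd74 UMIs, and were not computed without it. Clusters of 1 library are not replicates of each other, so this count is no replicate check. The 7 listed MHC class II genes summed to 5142 and 4542 CPM under 2%. In the epithelial reference cells they summed to 5260 and 4385 CPM. In proportion to the macrophage list, the RNA of the other barcodes would give 2915 and 1641 CPM of Cd74, and its part in the difference was not tested. H2-Ab1, the other class II gene among the 10 lowest ratios, had a log2 ratio of -0.94 over all cells and -0.21 under 2%. Of the 6 MHC class II genes at 100 CPM, 3 (H2-Aa, H2-Eb1 and Cd74) were lower in Zeb2KO over all cells, beside 0.381% of all genes, and 0 of 4 at 100 CPM under 2%, beside 0.187%. The other barcodes stood at 23077 and 15203 CPM for Cd74. The monocyte chemokine Ccl7 stood at 258 and 552 CPM over all cells and at 170 and 167 CPM under 2%, and the neutrophil chemokine Cxcl2 at 282 and 583 CPM and at 172 and 198 CPM. Of 12 chemokine and growth factor genes for macs at 100 CPM, 4 were higher in Zeb2KO over all cells (Ccl2, Ccl7, Cxcl2 and Cxcl10), beside 0.698% of all genes, and 1 of 12 under 2% (Cxcl10), beside 0.436%. Under 2%, Ccl7 stood at 264 and 225 CPM in cluster 1 and Cxcl2 at 186 and 393 CPM in cluster 2 and at 258 and 139 CPM in cluster 3. Ccl2 and Ccl12 are further monocyte chemokines. Ccl2 stood at 217 and 561 CPM over all cells and at 170 and 294 CPM under 2%, with log2 ratios of 1.36 and 0.79. Single cells held 72 of its 200 WT UMIs and 65 of its 241 Zeb2KO UMIs under 2%. The log2 ratio there was 0.36 without the Zeb2KO cell and 0.98 without both. Ccl2 stood at 260 and 484 CPM in cluster 1 but at 373 and 317 CPM in cluster 3. The other barcodes had 533 and 879 CPM of it, and its level in proportion to the macrophage list would be 67.3 and 94.9 CPM. Ccl12, which was not on the list, stood at 65.4 and 187 CPM over all cells and at 39.0 and 68.4 CPM under 2%, with log2 ratios of 1.5 and 0.79. Its level in proportion to the macrophage list would be 32.9 and 64.6 CPM.

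The highest ratio of all, that of the lectin gene Cd209g, came from 1 cell. Cd209g stood at 44.0 CPM in WT and 183 CPM in Zeb2KO, but 184 of its 203 UMIs in Zeb2KO were in a single barcode with 2% or more macrophage RNA. Under 2% it stood at 14.4 and 7.32 CPM. Gdf15, a stress-induced cytokine gene, had 55 of its 159 Zeb2KO UMIs in 1 cell, and stood at 28 and 34.2 CPM under 2%. Genes that the other barcodes carried more of included Fcna (ficolin A), at 62.9 and 181 CPM over all cells against 229 and 480 CPM in the other barcodes. Under 2% it stood at 19.5 and 52.5 CPM, beside a level in proportion to the macrophage list of 29 and 51.8 CPM. Acp5, an acid phosphatase gene, stood at 202 and 53.9 CPM over all cells and at 78.9 and 28.1 CPM under 2%, where the proportional level would be 62.5 and 30.9 CPM. Both genes were under the floor of 100 CPM in the cells under 2%. Within the 5 clusters Acp5 lay between 59.5 and 83.6 CPM in WT and between 15.5 and 50.6 CPM in Zeb2KO.

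Past 2-fold both over all cells and in their part under 2% were Cxcl10, Icam1, Serpina3n and Srgn, higher in Zeb2KO. Lower by 2-fold in both were Stmn2 and Gas1. The 4 others past 2-fold under 2% were Itm2a (59.4 and 122 CPM), Gadd45b (144 and 299 CPM) and Pim1 (56 and 144 CPM), higher in Zeb2KO, and the retinoid gene Dhrs3 (126 and 51.3 CPM), lower. Dhrs3 stood at 153 and 47.7 CPM in cluster 1 and at 54.9 and 53.6 CPM in cluster 4, and Pim1 at 59.3 and 274 CPM in cluster 2. Gadd45b stood at 233 and 450 CPM in cluster 1 but at 403 and 182 CPM in cluster 5. Serpina3n, a protease inhibitor gene that is close to 0 in the other barcodes (2.79 and 3.45 CPM), stood at 181 CPM in WT (157 to 207) and 383 CPM in Zeb2KO (342 to 428) under 2%. Within cluster 1 it stood at 240 and 705 CPM and within cluster 2 at 334 and 517 CPM, whereas in cluster 5 it stood at 119 and 60.8 CPM. A UMI was found in 49.2% of WT and 56.5% of Zeb2KO cells. Icam1, an adhesion molecule gene, stood at 82.3 and 188 CPM, and in cluster 1 at 149 and 341 CPM. The other barcodes had 92.9 and 103 CPM of it. Thinned to 4000 UMIs, it was found in 23.2% of WT and 35.1% of Zeb2KO cells, and in 26% and 29.7% of macrophage reference barcodes. Cxcl10, a chemokine for T cells, stood at 50.9 and 140 CPM, against 110 and 129 CPM in the other barcodes. Its UMIs came from 28 of 132 WT cells and 16 of 108 Zeb2KO cells. Thinned to 4000 UMIs, it was found in 11.2% of WT and 11.3% of Zeb2KO cells. Single cells held 19 of its 60 WT UMIs and 24 of its 115 Zeb2KO UMIs. In cluster 1 it stood at 101 and 279 CPM and in cluster 3 at 73.6 and 194 CPM, but in cluster 2 at 29.7 and 10.8 CPM. Srgn, a proteoglycan gene of leukocyte granules, stood at 48.6 and 285 CPM in cluster 2 and at 110 and 71.5 CPM in cluster 4. The other barcodes had 490 and 627 CPM of it, and the level in proportion to the macrophage list would be 61.9 and 67.7 CPM. Under 2%, 1 Zeb2KO cell held 23 of its 107 UMIs, and without that cell the log2 ratio was 0.71. Over all cells its log2 ratio was 1.002, and it was under 2-fold with the mean of each cell's CPM (0.69) and at the margin with TMM scaling (0.996).

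Stmn2, a gene of microtubule regulation best known in neurons, stood at 193 CPM in WT (168 to 219) and 30.5 CPM in Zeb2KO (19.7 to 45.0), a log2 ratio of -2.62. It was carried by 18 of 132 WT cells and 4 of 108 Zeb2KO cells. In cluster 2, which holds most of it, it stood at 388 and 135 CPM, and in cluster 1 at 240 and 0 CPM. Gas1, which encodes a membrane protein that binds hedgehog ligands, stood at 182 and 68.4 CPM and was found mainly in clusters 4 and 5. In cluster 4 it stood at 618 and 358 CPM and in cluster 5 at 925 and 142 CPM, and 51 of its 215 WT UMIs came from 1 cell. Of the 10 lowest ratios, those of Dhrs3, H2-Ab1, Ptgs1 and Hspb1 were under 2-fold over all cells. Ptgs1, which encodes a cyclooxygenase, stood at 162 and 86.3 CPM and the small heat shock gene Hspb1 at 837 and 474 CPM. With the 5 clusters of these cells weighted equally, 7 of 1624 genes passed 2-fold, and 5 of them were among the 10 of the pooled cells under 2%. These were Stmn2, Gas1 and Dhrs3, at log2 ratios of -2.32, -1.60 and -1.17, and Cxcl10 and Pim1, at 1.27 and 1.4. Ptgs1 (-1.001) passed as well, and so did Ptn, which was higher in Zeb2KO. Serpina3n (0.84), Icam1 (0.77) and Srgn (0.81) did not.

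**Figure D5:**
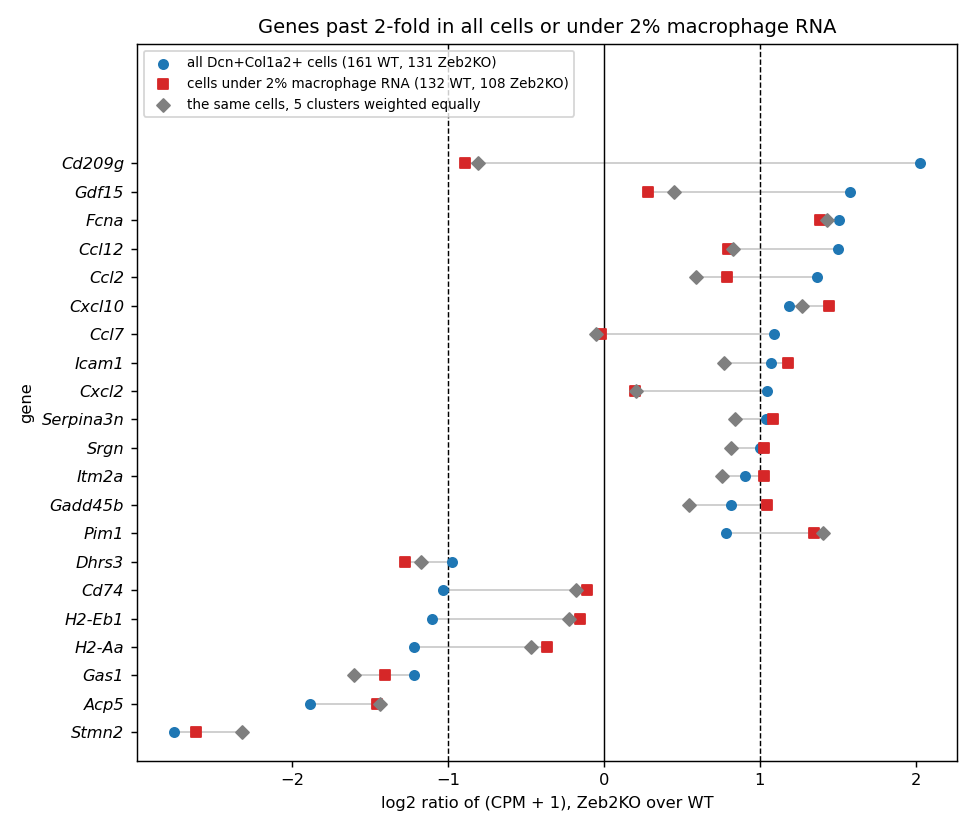
Log2 ratio of CPM plus 1, Zeb2KO over WT (x axis), of the 21 genes past 2-fold in all Dcn+Col1a2+ cells (blue circles) or in those under 2% macrophage RNA (red squares), with the 5 clusters weighted equally in grey diamonds; dashed lines mark 2-fold. Stmn2, Gas1 and Acp5 stay at -1 or below and Cxcl10 and Fcna at 1 or above in all 3, while Cd209g and Ccl7 change sign. Acp5 and Fcna were under the floor of 100 CPM in the cells under 2% and were not called there.

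The eosinophil chemokine Ccl11 came close to 2-fold, at 245 CPM in WT and 470 CPM in Zeb2KO over all cells, and stood at 3.14 and 5.14 CPM in the other barcodes. Under 2% macrophage RNA it stood at 500 and 1110 CPM in cluster 1 and at 391 and 377 CPM in cluster 2. The acute-phase gene Saa3 stood at 5.09 and 96.4 CPM under 2%. The other barcodes had 52.7 and 837 CPM of it, the epithelial reference cells 4.55 and 108 CPM, and the level in proportion to the macrophage list would be 6.65 and 90.4 CPM. The interleukin genes Il6 (5 and 22 UMIs over all cells) and Il33 (20 and 30 UMIs) rest on too few molecules to compare. Immediate early and dissociation genes, which respond to tissue digestion, had 0 of 19 genes past 2-fold but a median log2 ratio of 0.41, beside 0.0018 for all genes. The 20 listed genes summed to 14733 and 14899 CPM in the other barcodes, and to 16911 and 20228 CPM in the Dcn+Col1a2+ cells. Fos stood at 2372 and 2756 CPM and Egr1 at 511 and 766 CPM, and whether this shift bears on Icam1, Cxcl10 or Ccl2 was not tested.

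Leaving the Dcn+Col1a2+ cells out of the comparison of the whole colon libraries altered few calls. Among genes that reached 20 CPM in one of the libraries, 80 of 5270 (1.52%) passed 2-fold with all barcodes, 53 higher (1.01%) and 27 lower (0.512%) in Zeb2KO. Without the Dcn+Col1a2+ cells 84 of 5197 (1.62%) passed, 55 higher (1.06%) and 29 lower (0.558%), and 78 genes were common to both. The gelatinase gene Mmp2 passed only without them. It stood at 43.3 CPM in WT and 22.8 CPM in Zeb2KO with all barcodes and at 28.1 and 12.7 CPM without, and 37.3% and 45.7% of its UMIs were in these cells. Pdpn, the gene of podoplanin, had log2 ratios of 0.95 with all barcodes and 1.25 without. For 5 genes (Meg3, Igfbp6, Actg2, Bmp5 and Ifitm1) the log2 ratio moved by more than 0.5.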

How the data were processed

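The authors used Cell Ranger and STAR with mm10 and deposited raw UMI counts per gene and barcode for 11 libraries. The colon tables held 27998 genes, whole counts and as many barcodes as the labels give cells. No barcode was filtered and no doublet caller was run. The members, gene lists and limits were chosen with earlier results of these data known. UMIs were summed per library and scaled to CPM; log2 ratios used a pseudocount of 1 CPM, a floor of 100 CPM (20 CPM for whole libraries) and a 2-fold limit. With 1 library per genotype no test was made. Intervals are exact Poisson (CPM) and Clopper-Pearson (shares). Genes named were the highest of 32 lists (422 symbols, 6 not matched in the tables), the 15 highest ratios to other barcodes at 200 CPM, the 10 highest and 10 lowest Zeb2KO to WT ratios, and Zeb2 and Zeb1. Other list members and the cluster genes were chosen after their values were seen. Clusters used scanpy 1.11.5 and leidenalg 0.10.2 (1000 variable genes, 10 components, 10 neighbours, resolution 0.3). TMM factors came from edgeR 4.0.16. The fold rule was tested on simulated data.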

Additional observations from a re-analysis of the deposited data

How the results depend on the processing

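The rule with 1 UMI of each gene took 473 WT and 300 Zeb2KO barcodes (9.48% and 6.83%), and the share in WT moved to 2.69% with 5 UMIs of each. Without cells at 2% or more macrophage RNA, an alternative added after seeing the data, the shares were 2.65% and 2.46%. Shares by Col1a1 and Col3a1 and within 3 median absolute deviations stayed inside the intervals. The 17 genes past 2-fold between Zeb2KO and WT became 10 with the Col1a1 and Col3a1 rule, 10 without cells at 2% or more macrophage RNA, 28 at a floor of 50 CPM, 9 at 200 CPM and 7 with the clusters weighted equally (added after seeing the data), which leaves out the cells at 2% or more as well. Counts under the other 8 settings lay between 12 and 19, but 6 of the 17 genes were among the 14 called with 1 UMI of each gene, and 6 among the 16 called with 5 UMIs. With 5 UMIs, Ccl2, Ccl7, Cxcl2, Icam1, Acp5 and the MHC class II genes were under 2-fold. Icam1 and Serpina3n were not called with the Col1a1 and Col3a1 rule, nor were Icam1 and Cxcl10 without the top 5% of UMIs. Stmn2, Gas1 and Srgn were called under both. For the whole libraries, 80 became 15 at 100 CPM. Cd209g was reversed at a log2 ratio of -0.89 without cells at 2% or more macrophage RNA and -1.01 with 5 UMIs of each gene. With clusters weighted equally it was reversed at -0.81. Ccl7 was reversed at -0.021 without cells at 2% or more and -0.051 with clusters weighted equally. In Zeb2KO 1 barcode with 2% or more macrophage RNA held most Cd209g UMIs, and for Ccl7 the cause was not tested. The median macrophage share lay between 0.763% and 0.775% in WT and between 0.521% and 0.537% in Zeb2KO under its 3 alternatives. Of the 58 shares of cells with a UMI, 33 moved beyond their interval with thinning.

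Leaving out single cells (Cd74, Srgn and Ccl2) and thinning the sort genes were also added after seeing the data. No paired analysis was possible because each genotype had 1 colon library, so no test was made and no replicate could be left out. Differences between the libraries include mice, sort, droplet run and genotype, which cannot be told apart. Clusters of 24 to 78 cells limit every value within them.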
